A study of Canis lupus familiaris with 186 samples.

Results

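Osteoblasts are the cells that lay down bone. They secrete a matrix made mostly of type I collagen, load it with acidic phosphoproteins, and release phosphate at the cell surface so that the matrix mineralizes. SP7 (osterix) is a transcription factor that the lineage needs downstream of RUNX2, ALPL is tissue-nonspecific alkaline phosphatase, which frees phosphate by cleaving pyrophosphate, and IBSP is bone sialoprotein, a matrix phosphoprotein that binds mineral. Osteosarcoma is defined by tumor cells that make osteoid, the unmineralized bone matrix, and single tumors differ widely in how much of it they make. Cells that become buried in the matrix turn into osteocytes, which switch on a further set of genes.

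Canine osteosarcomas were ordered by an osteoblast score and the 47 tumors at its upper end were compared with the 47 at its lower end, out of 186 tumors in all. The score of a tumor was the mean z-score of SP7, IBSP and ALPL, each on the log2(CPM + 1) scale, where CPM is the count scaled to a library total of 1000000. Tumors at or above the 75th percentile are called osteoblast-high and tumors at or below the 25th percentile osteoblast-low, and the other 92 are called middle tumors. The series holds RNA-seq of one primary osteosarcoma from each of 186 privately owned pet dogs, taken as a biopsy before any treatment in 2 clinical trials, COTC021 and COTC022, with 93 dogs each. The labels describe each sample only as a tumor of *Canis lupus familiaris*, with no genotype, age or breed, so the groups rest on the measured RNA alone. Each tumor was 1 biopsy of mixed cells, so fewer cells of a type and less RNA per cell of that type cannot be told apart in any value given here. Outcome after treatment was not analysed here.

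The score ran from -3.57 to 1.42 with a median of 0.23. The highest osteoblast-low tumor scored -0.298 and the next tumor above it -0.273, and the lowest osteoblast-high tumor scored 0.550 with the next below it at 0.547, so neither border marks a gap. SP7 ranged from 15.5 to 74.8 CPM around a median of 43.9 in the osteoblast-high tumors and from 0 to 28.4 CPM around a median of 7.23 in the osteoblast-low tumors. For IBSP the corresponding values were 131 to 12559 CPM (median 1845) and 0 to 1333 CPM (median 90.9). ALPL reached 562 to 5097 CPM (median 1667) in the osteoblast-high tumors and 0.696 to 1007 CPM (median 147) in the osteoblast-low tumors. These values chose the groups and are given as a description only. The 3 genes did not rank the tumors identically: of the 47 osteoblast-high tumors, 35 were also at or above the 75th percentile for SP7 alone, 33 for ALPL and 28 for IBSP, and 1 of them was at or below the 25th percentile for IBSP. RUNX2 was at 30.4 CPM or more in all 47 osteoblast-low tumors, and COL1A1, which fibroblasts also make, at 328 CPM or more.

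**Figure D1:**
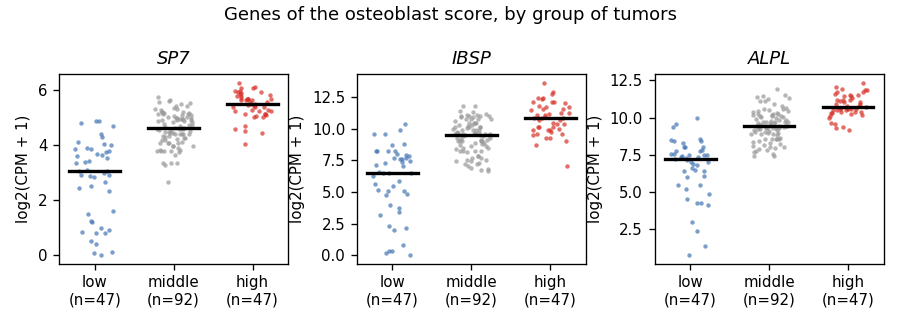
Levels of SP7, IBSP and ALPL in each of the 186 tumors (points, log2 of CPM plus 1, vertical axis) by group (47 osteoblast-low, 92 middle and 47 osteoblast-high tumors), with black lines at the group medians. All 3 medians rise from low to high because these genes chose the groups, and the points of neighboring groups overlap.

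Library totals ran from 6587634 to 27420867 counts with a median of 10797171, and 50 libraries whose names carry a doubled separator were deeper (median 19440456 counts) than the other 136 (median 9851682 counts). Median totals were 11634142 counts in the osteoblast-high tumors and 10444493 in the osteoblast-low tumors, a difference of 0.20 in mean log2 total (permutation test, two-sided, p = 0.0507). Each group held 24 tumors of COTC021 and 23 of COTC022, and 14 high and 10 low tumors came from the deeper libraries (Fisher's exact test, two-sided, p = 0.478). The median share of counts assigned to genes annotated as ribosomal RNA was 2.04% in the osteoblast-high and 2.69% in the osteoblast-low tumors. The authors reported a much smaller share of ribosomal bases, which is a different measure. A pair of osteoblast-low libraries stood apart. The lowest-scoring tumor of the series had the highest leukocyte score and 0.196% of its counts in COL1A1, COL1A2 and SPARC together. Another had 62.9% of its counts in its 100 highest genes and 52.4% assigned to genes annotated as ribosomal RNA. Without the lowest-scoring library 1939 genes were higher and 2464 lower, against 2243 and 2353 with it, and without the other library 2220 and 2331.

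Of 13419 genes tested besides the 3 score genes, 2243 (16.7%) were higher and 2353 (17.5%) were lower in the osteoblast-high tumors at an adjusted p below 0.05, 4596 in all (34.2%). Fold changes are given as log2 of osteoblast-high over osteoblast-low ± SE, with p-values from limma-voom, adjusted by the Benjamini-Hochberg method over the 13419 genes. Where a pair of medians is given, the osteoblast-high value comes first. Since the groups were set by measured RNA of the same libraries, each such p asks whether a gene varied with the 3 score genes from tumor to tumor. A group of 446 genes changed by more than 3-fold, 229 (1.71%) upward and 217 (1.62%) downward. This balance depended on the tool, with 138 upward and 393 downward in edgeR's quasi-likelihood test and 137 and 380 in DESeq2. It also depended on SP7, without which in the score 50 genes were downward. All 446 kept their direction within each trial and within each library name group. Of the 136 genes named below that passed, 30 did not pass within COTC021 alone, 30 within COTC022 alone and 57 within the deeper libraries alone with their direction kept, and fewer tumors remained in each. In the deeper libraries SLC20A1 in addition turned in direction and did not pass. For no gene did the difference between the groups itself differ by trial or by library name at an adjusted p below 0.05 (limma-voom interaction terms, 0 genes each). An unadjusted p below 0.05 was reached by 484 of 13419 genes for trial and 1189 for library name. The first is less and the second more than a share of 0.05, which no difference would give. With 14 high and 10 low tumors in the deeper libraries, equal contrasts by library name are not shown.

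The most altered genes outside the score included genes known from late osteoblasts and osteocytes. The 10 genes with the largest increases were SLC36A2, COL22A1, SOST, DMP1, SMPD3, SLC9A2, PPFIA2, IFITM5, NPY and APCDD1L, with log2 fold changes from 4.00 to 5.64. SLC36A2 (chr4:58794930-58819608), an amino acid transporter, ran from 2.98 to 95.2 CPM around a median of 28.0 in the high and from 0 to 14.4 CPM around 0.501 in the low tumors (log2 fold change 5.64 ± 0.53, adjusted p = 3.95e-18). In 38 of 47 osteoblast-high tumors it lay above the highest osteoblast-low tumor. COL22A1 (chr13:34334014-34603326), a collagen otherwise known from tissue junctions, ran from 1.27 to 700 CPM around a median of 101 in the high and from 0 to 59.3 CPM around 2.04 in the low tumors (log2 fold change 5.22 ± 0.69, adjusted p = 2.93e-10), and 29 of the 47 high tumors lay above every low tumor. SLC9A2, a sodium-proton exchanger, had medians of 9.84 CPM in the high and 0.633 CPM in the low tumors (log2 fold change 4.25 ± 0.66, adjusted p = 6.29e-08). NPY, the neuropeptide Y precursor, had medians of 6.54 and 0.117 CPM (log2 fold change 4.00 ± 0.72, adjusted p = 2.36e-06), so in the low tumors it was close to the limit of detection. PPFIA2, which encodes a liprin scaffold protein, and APCDD1L, related to a Wnt inhibitor, had medians in the high tumors of 13.7 and 35.9 CPM, against 0.498 and 1.88 CPM in the low tumors. Genes near 0 in many low tumors have fold changes that depend on the tool, and edgeR gave 2.71 to 4.94 for these 10 genes.

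**Figure D2:**
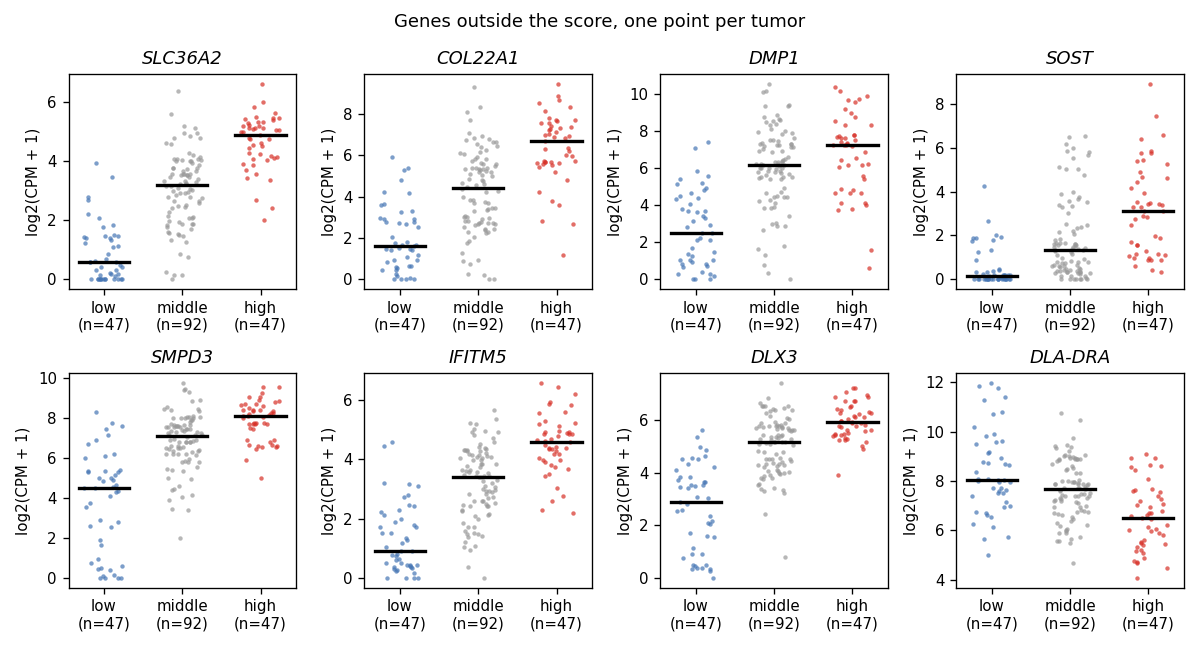
Levels of 8 genes outside the score in each tumor (points, log2 of CPM plus 1, vertical axis) by group (47 low, 92 middle and 47 high tumors), with black lines at the medians. SLC36A2, COL22A1, DMP1, SOST, SMPD3, IFITM5 and DLX3 have their highest median in the osteoblast-high tumors with middle tumors between, whereas DLA-DRA has its lowest median there.

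Transcription factors of the lineage were higher with the score in 9 of 13 tested members of that list, with 1 lower and a median log2 fold change of 1.02, against -0.0049 over all genes tested. RUNX2 (chr12:13825170-14151515), the factor that commits cells to the osteoblast lineage, ran from 95.6 to 668 CPM around a median of 268 in the high and from 30.4 to 769 CPM around 109.5 in the low tumors (log2 fold change 1.14 ± 0.13, adjusted p = 1.07e-13). No high tumor exceeded the highest low tumor, although 46 of 47 lay above the median of the low tumors. DLX3 (chr9:25969011-25973822), a homeobox factor of bone and teeth, ran from 14.0 to 149 CPM around a median of 59.9 in the high and from 0 to 48.4 CPM around 6.45 in the low tumors (log2 fold change 3.70 ± 0.32, adjusted p = 3.12e-20), the largest change of the list. Over 4 bins of the score, cut at its 25th, 50th and 75th percentiles so that bin 1 is the low and bin 4 the high group, its median climbed, at 6.45, 22.0, 48.3 and 59.9 CPM. The homeobox genes DLX5 and DLX6 changed by 1.60 ± 0.22 and 2.28 ± 0.30, but their medians were highest in bin 3 (DLX5 at 21.9, 41.8, 51.4 and 46.9 CPM). CREB3L1, a membrane-bound factor that drives collagen genes, FOXC1 and the RUNX partner CBFB changed by 1.11 ± 0.22, 1.02 ± 0.22 and 0.49 ± 0.11. TWIST1, which restrains RUNX2, changed by 0.43 ± 0.18 (adjusted p = 0.0482 in limma-voom). TWIST1 lost the call without the lowest-scoring library (adjusted p = 0.156), in edgeR and DESeq2 (adjusted p = 0.155 each), within either trial and within either library name group. With the leukocyte score as a covariate TWIST1 was at 0.063 (adjusted p = 0.789). ATF4, a stress factor that osteoblasts need for collagen synthesis, was the member that fell (log2 fold change -0.27 ± 0.10, adjusted p = 0.0293), and it lost the call in edgeR (adjusted p = 0.0768).

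Bone matrix genes were higher in most cases, and the size of the change varied widely among them. Of 15 tested members, 9 were higher and 0 lower, with a median of 0.66, and edgeR gave 8 higher and 2 lower, against 9 and 1 without the lowest-scoring library. BGLAP (chr7:41613117-41614007), osteocalcin, the vitamin K-dependent protein of mature osteoblasts, ran from 3.13 to 912 CPM around a median of 48.3 in the high and from 0.228 to 233 CPM around 3.46 in the low tumors (log2 fold change 2.94 ± 0.52, adjusted p = 1.84e-06). Low tumors were not uniformly without it, since 7 high tumors exceeded the highest low tumor and the low group reached 233 CPM. BGLAP did not pass within the 50 deeper libraries (log2 fold change 2.16, adjusted p = 0.176). OMD, osteomodulin, a keratan sulfate proteoglycan of mineralized matrix, ran from 58.9 to 2975 CPM around a median of 836 in the high and from 2.59 to 1094 CPM around 142 in the low tumors (log2 fold change 2.82 ± 0.31, adjusted p = 3.97e-14). COL24A1, a minor fibrillar collagen of bone, ran from 32.1 to 308 CPM around a median of 87.6 in the high and from 0 to 105 CPM around 18.2 in the low tumors (log2 fold change 2.74 ± 0.28, adjusted p = 9.69e-16), with all 47 high tumors above the median of the low tumors. SPP1, osteopontin, which osteoclasts and macrophages also make, had medians of 1919.8 and 794 CPM (log2 fold change 1.17 ± 0.31, adjusted p = 0.00164), and lost its call when IBSP was left out of the score (log2 fold change 0.56, adjusted p = 0.159). CLEC11A, osteolectin, a growth factor for osteogenic cells, changed by 1.52 ± 0.21.

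Type I collagen, the bulk of the matrix, showed smaller fold changes. COL1A1, COL1A2 and SPARC together took a median of 7.33% of counts in the high and 4.07% in the low tumors. COL1A2 ran from 8369 to 94652 CPM around a median of 33496 in the high and from 402 to 67471 CPM around 16195 in the low tumors (log2 fold change 1.10 ± 0.22, adjusted p = 1.34e-05). COL1A1 (chr9:26134702-26150789) ran from 1522 to 112270.1 CPM around a median of 28032 in the high and from 328 to 78018 CPM around 20113 in the low tumors (log2 fold change 0.81 ± 0.27, adjusted p = 0.014), so the groups overlapped over most of their range. Its medians over the score bins, 20113, 15510.4, 19589 and 28032 CPM, did not rise in order. The COL1A1 call was lost in edgeR (adjusted p = 0.069), DESeq2 (adjusted p = 0.0527) and within either trial. SPARC, osteonectin, and BGN, biglycan, changed by 0.62 ± 0.20 and 0.66 ± 0.20, and neither passed within a trial alone. Decorin (DCN) and lumican (LUM), small leucine-rich proteoglycans of fibrous matrix, had values of -0.81 ± 0.43 (adjusted p = 0.138) and -0.90 ± 0.42 (adjusted p = 0.0794) that did not pass in limma-voom, although 41 and 42 of the 47 high tumors lay below the median of the low tumors. Both passed in edgeR (log2 fold changes -1.07 and -0.92), and LUM also without the lowest-scoring library (log2 fold change -1.03, adjusted p = 0.0446). Their direction turned within the 50 deeper libraries, at 0.11 and 0.22.

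Genes that control mineral deposition were also higher. Of 13 tested members of the mineral and phosphate list, 9 were higher and 2 lower, with a median of 1.09, and edgeR gave the same split. PHOSPHO1 (chr9:25338673-25344838), the phosphatase that starts mineral inside matrix vesicles, ran from 1.34 to 38.3 CPM around a median of 8.38 in the high and from 0 to 8.36 CPM around 0.939 in the low tumors (log2 fold change 3.58 ± 0.38, adjusted p = 5.73e-15). SMPD3 (chr5:81675446-81757898), a neutral sphingomyelinase that acts with it and is needed for normal mineralization, ran from 31.0 to 752 CPM around a median of 273 in the high and from 0 to 312 CPM around 21.3 in the low tumors (log2 fold change 4.57 ± 0.44, adjusted p = 2.94e-17). For both, every high tumor lay above the median of the low tumors. IFITM5 (chr18:25803425-25804568), the bone-restricted membrane protein BRIL that is mutated in a form of brittle bone disease, ran from 3.56 to 94.8 CPM around a median of 23.1 in the high and from 0 to 22.9 CPM around 0.872 in the low tumors (log2 fold change 4.20 ± 0.43, adjusted p = 9.68e-16). PHEX, an endopeptidase whose loss causes hypophosphatemic rickets, had medians of 48.4 and 2.87 CPM (log2 fold change 3.43 ± 0.48, adjusted p = 1.58e-09). SLC13A5, a citrate importer, was uneven among the high tumors, from 0.0947 to 455 CPM, with 25 above the highest low tumor and 10 below the median of the low tumors (log2 fold change 3.62 ± 0.84, adjusted p = 0.000266). The pyrophosphate-handling genes ENPP1 and ANKH, which supply the mineral inhibitor that ALPL removes, changed by 0.77 ± 0.24 and 1.00 ± 0.25, in the same direction as the phosphatases. ENPP1 lost its call within COTC021 (adjusted p = 0.279) and when SP7 or ALPL was left out of the score. Of the type III phosphate transporters, SLC20A2 was higher (log2 fold change 1.09 ± 0.24, adjusted p = 9.62e-05) and SLC20A1 lower (log2 fold change -0.28 ± 0.11, adjusted p = 0.0315). SLC20A1 turned to 0.22 within the deeper libraries.

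Osteocyte genes varied, with DMP1, SOST and SLC8A3 far higher in the osteoblast-high tumors and others not. DMP1 (chr32:28939356-28952608), a matrix phosphoprotein of early osteocytes, ran from 0.523 to 1301 CPM around a median of 149 in the high and from 0 to 170.4 CPM around 4.66 in the low tumors (log2 fold change 4.73 ± 0.70, adjusted p = 1.46e-08). In 45 of 47 high tumors it exceeded the median of the low tumors, and its medians over the score bins were 4.66, 62.7, 79.6 and 149 CPM. SOST (chr9:19415616-19420514), sclerostin, the Wnt inhibitor secreted by mature osteocytes, ran from 0.259 to 486 CPM around a median of 7.82 in the high and from 0 to 18.2 CPM around 0.106 in the low tumors (log2 fold change 5.00 ± 0.68, adjusted p = 5.66e-10). Its median in the low tumors, 0.106 CPM, is about 1 read in a library of median depth. Within the 50 deeper libraries, with 14 high and 10 low tumors, DMP1 and SOST were at 5.00 (adjusted p = 0.0589) and 3.94 (adjusted p = 0.124), so neither passed there. SLC8A3 (chr8:44055432-44196751), a sodium-calcium exchanger placed in the same list, ran from 69.6 to 570 CPM around a median of 237 in the high and from 0.316 to 137 CPM around 29.9 in the low tumors (log2 fold change 3.31 ± 0.25, adjusted p = 1.03e-24), with 44 of 47 high tumors above every low tumor. TNFSF11, RANKL, the cytokine that drives osteoclast formation, changed by 1.07 ± 0.26 (adjusted p = 0.000442 in limma-voom) but did not pass in edgeR (0.34, adjusted p = 0.263). Its decoy receptor TNFRSF11B, osteoprotegerin, was at 0.44 ± 0.39 (adjusted p = 0.396), with the sign reversed in edgeR. RELN was the member that fell (log2 fold change -1.39 ± 0.48, adjusted p = 0.0158), and it lost the call with the leukocyte score as a covariate (adjusted p = 0.0569). In all, 4 of 9 tested members were higher and 1 lower, with a median of 0.44. MEPE and FGF23 fell under the count filter and were not tested. MEPE had medians of 0.947 CPM in the high and 0.0854 CPM in the low tumors. SPP1, MEPE, IBSP and DMP1, members of the phosphoprotein family encoded side by side, lie in this order within 322 kb of chromosome 32 in the German Shepherd assembly GSD_1.0, to which all coordinates given here refer.

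**Figure D3:**
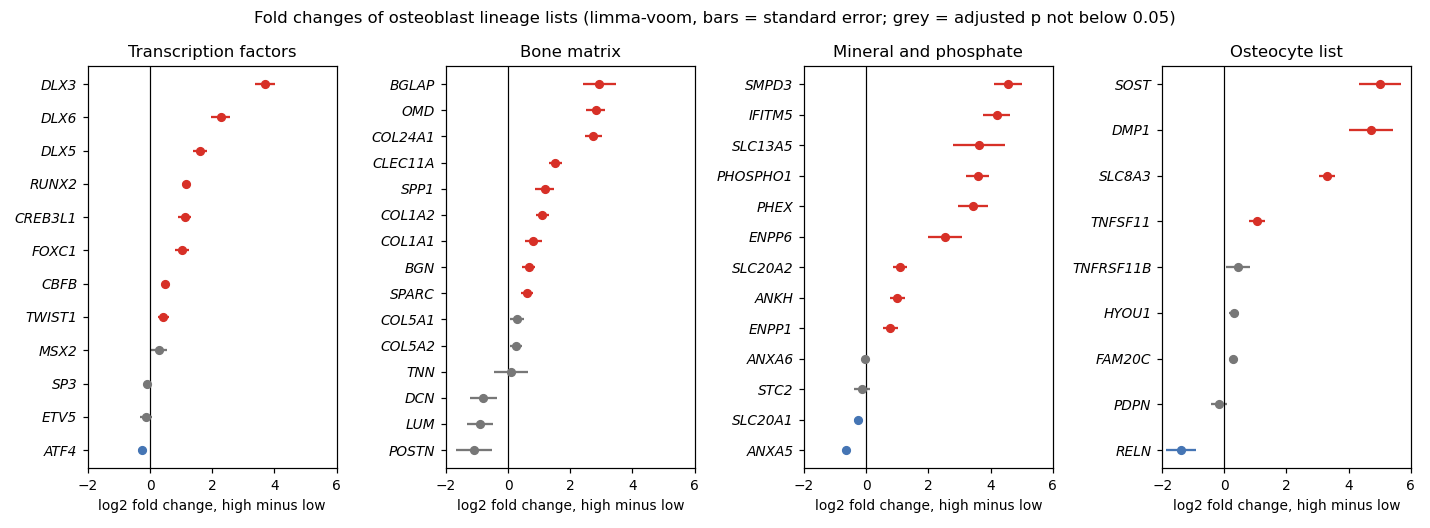
Log2 fold changes, osteoblast-high minus osteoblast-low (horizontal axis, bars = SE of the limma-voom fit), of tested members of 4 lists. Red marks members higher and blue members lower at an adjusted p below 0.05, and grey members that did not pass. Mineral and osteocyte genes reach 4.57 and 5.00, whereas COL1A1 is at 0.81.

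Enzymes that fold and modify collagen were shifted by less than 2-fold. Of 23 tested members, 14 were higher and 3 lower, with a median of 0.37 and no change above 3-fold. P3H1, the prolyl 3-hydroxylase of type I collagen, FKBP10, a collagen chaperone, and SERPINH1, the collagen-specific chaperone HSP47, changed by 0.83 ± 0.14, 0.82 ± 0.15 and 0.81 ± 0.15. SERPINH1 ran from 858 to 6443 CPM around a median of 2674 in the high and from 185 to 3817 CPM around 1526 in the low tumors. The members that fell were COLGALT1, P4HA3 and the lysyl oxidase LOXL2, at -0.38 ± 0.11, -0.73 ± 0.22 and -0.64 ± 0.24. COLGALT1 and P4HA3 did not pass within either trial alone. LOXL2 did not pass within COTC021 or when SP7 was left out of the score. None of them passed within the deeper libraries. In the secretory pathway list 9 of 29 were higher and 3 lower, with KDELR1 and SEC61A1 at 0.54 ± 0.08 and 0.51 ± 0.09 and the secretory stress factor XBP1 at -0.45 ± 0.11.

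Signaling genes changed in both directions. For parathyroid hormone, PTH1R (chr20:42311419-42330892), the receptor through which the hormone acts on osteoblasts, ran from 95.3 to 462 CPM around a median of 190.2 in the high and from 0.380 to 234 CPM around 33.8 in the low tumors (log2 fold change 2.78 ± 0.24, adjusted p = 3.39e-20). Every high tumor lay above the median of the low tumors. Its paracrine ligand gene PTHLH moved the other way, with medians of 0.843 and 2.61 CPM (log2 fold change -1.85 ± 0.38, adjusted p = 3.80e-05). In the hedgehog pathway the ligand gene IHH, which coordinates cartilage and bone formation, changed by 3.46 ± 0.61 from a median of 0.215 CPM, and the pathway's transcriptional targets PTCH1 and GLI1 by 1.29 ± 0.22 and 1.77 ± 0.38. The receptors FGFR1, FGFR2 and FGFR3 changed by 1.11 ± 0.18, 1.31 ± 0.23 and 1.70 ± 0.33, whereas the ligand gene FGF2 was lower (log2 fold change -1.87 ± 0.30, adjusted p = 1.31e-07). VDR, the vitamin D receptor, NOTCH3 and the Notch target HEY1 changed by 1.37 ± 0.20, 1.00 ± 0.18 and 1.65 ± 0.22. Over the parathyroid hormone, hedgehog, FGF, IGF and Notch list, 17 of 38 tested members were higher and 6 lower, with a median of 0.39. Of all genes tested 17.5% were lower, a share near that of this list, so nothing is read from its lower count.

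Of 31 tested Wnt genes, 14 were higher and 8 lower, with a median of 0.06. Of all genes tested 16.7% were higher and 17.5% lower, and nothing is read from the lower count of this list. LRP4 (chr18:43041646-43093851), the receptor that presents sclerostin, ran from 42.7 to 421 CPM around a median of 195 in the high and from 3.80 to 218 CPM around 34.7 in the low tumors (log2 fold change 2.44 ± 0.22, adjusted p = 6.62e-20). The R-spondin receptors LGR4 and LGR6 and the ligand gene WNT10B changed by 1.37 ± 0.19, 2.79 ± 0.39 and 1.94 ± 0.34. LEF1 and TCF7, the nuclear effectors of canonical Wnt signaling and also its targets, changed by 1.30 ± 0.21 and 1.19 ± 0.19. Secreted Wnt inhibitors divided. WIF1 ran from 3.83 to 20193 CPM around a median of 1137 in the high and from 0.216 to 13009 CPM around 148 in the low tumors (log2 fold change 3.65 ± 0.53, adjusted p = 8.86e-09), with medians of 148, 1131, 1254 and 1137 CPM over the score bins, bin 1 having the lowest. NOTUM and DKK1 were also higher, at 1.91 ± 0.37 and 2.22 ± 0.60, DKK1 losing its call when IBSP was left out of the score (adjusted p = 0.211). DKK1 did not pass within either trial alone, and NOTUM did not pass within COTC022. Neither passed within the deeper libraries. DKK3, SFRP2, SFRP4 and FRZB were lower, at -2.05 ± 0.33, -1.06 ± 0.38, -1.29 ± 0.45 and -1.29 ± 0.44. The last 3 did not pass within COTC021 alone, within the deeper libraries or when SP7 was left out of the score. SFRP2 and SFRP4 did not pass within COTC022 either, nor SFRP2 and FRZB within the other libraries. DKK3 passed within each trial but not within the deeper libraries. DKK3 had medians of 13.1 and 64.3 CPM, and 44 of 47 high tumors lay below the low median. WNT2 (log2 fold change -3.12 ± 0.57, adjusted p = 3.85e-06) and RSPO2 (log2 fold change -1.52 ± 0.35, adjusted p = 0.000251) were lower and RSPO3 (log2 fold change 1.44 ± 0.44, adjusted p = 0.00568) higher. The call of RSPO3 was lost within COTC022 (adjusted p = 0.206) and within each library name group. RSPO2 lost its call within COTC022 and within the deeper libraries.

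BMP and TGF-beta genes showed 12 of 34 higher and 6 lower, with a median of 0.21. The lower share was near the 17.5% of all genes tested, so nothing is read from it about this list. The ligand genes BMP4, BMP2 and BMP6, which induce bone, changed by 2.11 ± 0.24, 1.14 ± 0.18 and 1.32 ± 0.17, and BMP3, which opposes them, by 2.94 ± 0.63. BMP4 ran from 26.7 to 347 CPM around a median of 123 in the high and from 0.447 to 161 CPM around 33.4 in the low tumors. The feedback inhibitors SMAD6 and SMAD7 and the target gene ID1 changed by 0.98 ± 0.15, 0.95 ± 0.15 and 1.11 ± 0.22, and the antagonist NOG, noggin, by 1.66 ± 0.27. TGFB1, which bone matrix stores, ran from 90.6 to 450.5 CPM around a median of 195 in the high and from 23.1 to 227 CPM around 80.9 in the low tumors (log2 fold change 1.42 ± 0.13, adjusted p = 6.56e-19). Every high tumor lay above the median of the low tumors. The receptors TGFBR2 and TGFBR3 were lower, at -0.52 ± 0.15 and -1.48 ± 0.30, the first losing its call with the leukocyte score as a covariate (adjusted p = 0.0778). The BMP antagonist CHRDL1 was lower with medians of 1.44 and 16.5 CPM (log2 fold change -3.41 ± 0.77, adjusted p = 0.000169).

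Genes known from fibrous and contractile tissue were among those most reduced in the osteoblast-high tumors. The 10 largest decreases were of VGLL3, MFAP5, CHRDL1, SEMA3C, CNN1, ZPLD1, C1QTNF3, WNT2, MFAP4 and FCGR2B, with log2 fold changes from -3.78 to -2.92. VGLL3 (chr31:1350874-1468572), a cofactor of TEAD transcription factors, ran from 0 to 69.9 CPM around a median of 3.69 in the high and from 0.191 to 1215 CPM around 48.0 in the low tumors (log2 fold change -3.78 ± 0.58, adjusted p = 2.99e-08), and 46 of 47 high tumors lay below the low median. SEMA3C, a secreted guidance protein, followed the same pattern, with medians of 3.21 and 51.7 CPM (log2 fold change -3.30 ± 0.50, adjusted p = 1.95e-08). MFAP5 and MFAP4, microfibril proteins of elastic connective tissue, changed by -3.61 ± 0.95 and -2.93 ± 0.85 from medians of 8.58 and 2.91 CPM in the low tumors, where single tumors reached 1677 and 528 CPM. The MFAP4 call was lost within COTC022 (adjusted p = 0.163) and within each library name group, and the MFAP5 call within COTC022. C1QTNF3 lost its call within COTC021 (adjusted p = 0.124) and within the deeper libraries. CNN1, calponin of smooth muscle and myofibroblasts, changed by -3.24 ± 0.54, and TAGLN, its companion in contractile cells, ran from 6.33 to 900.1 CPM around a median of 67.6 in the high and from 7.54 to 3748 CPM around 366 in the low tumors (log2 fold change -2.07 ± 0.32, adjusted p = 6.89e-08). In the fibroblast list 13 of 20 members were lower and 1 higher, with a median of -0.99, and in the pericyte and smooth muscle list 6 of 13 were lower and 1 higher. FBLN2, fibulin 2, ran from 9.54 to 362 CPM around a median of 65.2 in the high and from 20.8 to 1240.2 CPM around 243 in the low tumors (log2 fold change -1.78 ± 0.27, adjusted p = 2.31e-08). COL6A2 and CFD, complement factor D, changed by -1.47 ± 0.27 and -2.87 ± 0.53. PDGFRA, a receptor found on many mesenchymal cells, was the fibroblast list member that rose (log2 fold change 0.78 ± 0.23, adjusted p = 0.00375), and it lost its call when SP7 was left out of the score (adjusted p = 0.0617). Its call was also lost within either trial alone and outside the deeper libraries. The summed level of the fibroblast list had a median of 11646 CPM (range 4483 to 39122) in the high and 21766 CPM (1785 to 83883) in the low tumors.

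Genes of immune cells were mostly lower in the osteoblast-high tumors. The leukocyte score, the mean z-score of 14 genes that all leukocytes share, had a median of -0.38 in the high and 0.089 in the low tumors, and its part in the other results was not tested except where it enters as a covariate. All 8 tested genes of MHC class II antigen presentation were lower, with a median of -1.76. DLA-DRA (chr12:2287866-2291417), the canine alpha chain of DR, ran from 15.7 to 541 CPM around a median of 88.9 in the high and from 30.6 to 4039 CPM around 262 in the low tumors (log2 fold change -1.92 ± 0.28, adjusted p = 9.11e-09). DLA-DMB, which loads peptide, and CTSS, the protease that trims the invariant chain, changed by -1.72 ± 0.27 and -1.60 ± 0.26. Of 15 macrophage genes 11 were lower and 1 higher, with a median of -1.22, and with the leukocyte score as a covariate 6 were lower and 4 higher. The scavenger and mannose receptors MSR1 and MRC1 and the complement receptor VSIG4 changed by -1.74 ± 0.27, -1.80 ± 0.28 and -1.73 ± 0.28. CD68, a lysosomal protein that osteoclasts share with macrophages, was the macrophage list member that rose (log2 fold change 0.87 ± 0.33, adjusted p = 0.0275), and it lost its call in edgeR (adjusted p = 0.053) and within either trial. In the list shared by all leukocytes 10 of 14 were lower and 0 higher, with a median of -0.87, among them CD53, CD37 and IKZF1 at -1.67 ± 0.28, -1.32 ± 0.26 and -1.45 ± 0.28. Of 20 T and NK cell genes 11 were tested, and 7 of these were lower, all 11 in edgeR and 4 with the leukocyte score as a covariate (median -1.40 without and -0.46 with it). The summed list had a median of 42.1 CPM (range 10.6 to 692) in the high and 53.6 CPM (13.7 to 10102) in the low tumors. In 15 of the 47 high tumors the sum exceeded the low median. Its mean z-score had medians of -0.18, 0.02, -0.20 and -0.31 over the score bins, so bins 1 and 3 were alike. CD4, CD2 and GZMK were at -1.76 ± 0.40, -1.44 ± 0.33 and -2.32 ± 0.57, GZMK reaching 2271 CPM in 1 low tumor. CD4, CD2 and GZMK did not pass within COTC021 alone, and CD2 and GZMK did not pass outside the deeper libraries. All 3 tested B and plasma cell genes were lower, CD22 by the most (log2 fold change -1.85 ± 0.34, adjusted p = 3.84e-06), and 9 members of that list lay below the filter. With the leukocyte covariate 2 of the 3 were lower. Of 6 tested neutrophil and mast cell genes 3 were lower, or 1 with that covariate, and 1 higher, the last being KIT, a receptor that some tumor cells also carry (log2 fold change 1.01 ± 0.24, adjusted p = 0.000428). The median sum of the pan-leukocyte list was 690.1 CPM (range 124 to 1993) in the high and 798 CPM (147 to 10308) in the low tumors.

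Interferon-stimulated genes were lower in 10 of 21 tested and higher in 0, with a median of -0.68, and CD274, the checkpoint ligand PD-L1, ran from 0.263 to 11.4 CPM around a median of 1.19 in the high and from 0.234 to 20.5 CPM around 2.01 in the low tumors (log2 fold change -1.33 ± 0.27, adjusted p = 2.10e-05). With the leukocyte score as a covariate 3 of the 21 interferon-stimulated genes were lower, with a median of -0.15. That share was near the 1946 of 13419 genes lower in the same fit, so nothing is read from it. All 8 MHC class II genes were lower with this covariate, with a median of -0.95. GS-1 and GS-2 are gene signatures that the study took from an earlier comparison of canine osteosarcomas with a canine osteoblast reference. The lists used here hold 25 and 156 of their genes and are shorter than the full signatures. Of 25 GS-1 genes 21 were lower and 0 higher, with a median of -1.45, and 17 were lower with the leukocyte covariate. The called GS-1 genes with the strongest evidence were CD53, VSIG4 and TIFAB, the last at -2.08 ± 0.32. Of 155 tested GS-2 genes 110 were lower and 5 higher, with a median of -1.19, and with the leukocyte covariate 65 were lower. CD53 and IKZF1 are also on the pan-leukocyte list and VSIG4 on the macrophage list. The 5 higher GS-2 genes included BGLAP, LGR6 and WIF1.

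Osteoclast genes were higher in the osteoblast-high tumors. Osteoclasts resorb bone and arise from the monocyte lineage. Of 17 tested members 11 were higher and 0 lower, with a median of 0.65, and 15 were higher with the leukocyte score as a covariate. MMP9, the gelatinase abundant in osteoclasts, ran from 18.0 to 18966 CPM around a median of 1598 in the high and from 1.22 to 7838 CPM around 507 in the low tumors (log2 fold change 2.15 ± 0.52, adjusted p = 0.000424). ITGB3, the vitronectin receptor subunit with which osteoclasts hold on to bone, and CLCN7, the chloride transporter of their acid compartment, changed by 0.89 ± 0.23 and 0.54 ± 0.14. MMP9, ITGB3 and CLCN7 did not pass within COTC021 alone. CLCN7 did not pass within the deeper libraries, nor ITGB3 within the others. The summed osteoclast list had a median of 6318 CPM (range 421 to 41496) in the high and 2921 CPM (298 to 24378) in the low tumors, so the ranges overlapped. Across the score bins its mean z-score had medians of -0.43, 0.39, 0.53 and 0.26, so that it was lowest in bin 1 and no higher in bin 4 than in bins 2 and 3. MHC class II genes showed another order, at 0.18, 0.28, -0.15 and -0.64, with little change from bin 1 to bin 2 and lower values in bins 3 and 4. The mineral list rose at each step, at -0.44, 0.01, 0.16 and 0.37. These medians are descriptions, with no test.

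**Figure D4:**
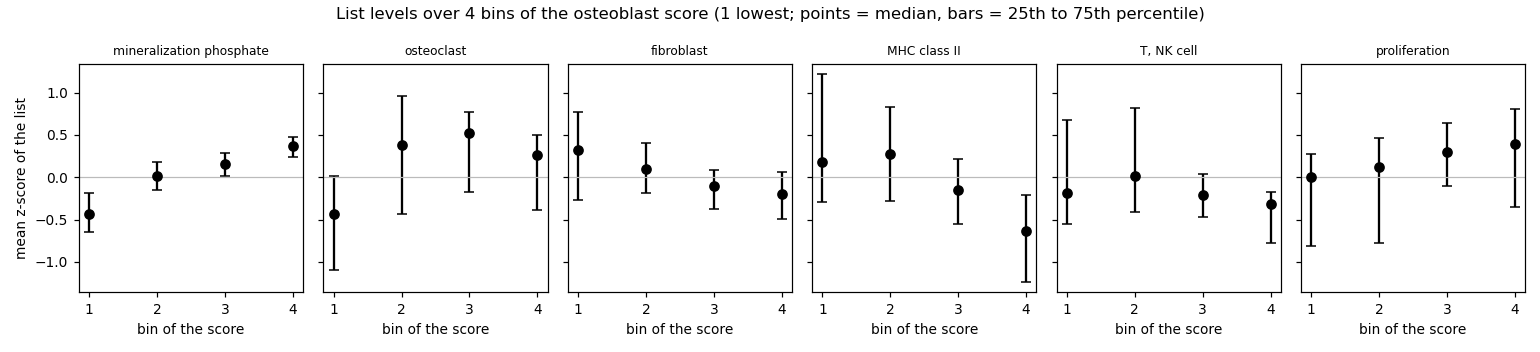
Mean z-score of log2(CPM + 1) over the members of 6 gene lists (vertical axis) in each bin of the osteoblast score (horizontal axis, 1 lowest, with 47, 46, 46 and 47 tumors), as the median (points) and the 25th to 75th percentile (bars) over tumors. The mineral list climbs throughout, the osteoclast list has its lowest median in bin 1, and the MHC class II list is lower in bins 3 and 4.

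Matrix proteases were higher in 8 of 20 and lower in 2, or in 6 and 5 in edgeR. MMP13, collagenase 3, a target of RUNX2, ran from 55.9 to 11613 CPM around a median of 1038 in the high and from 0.530 to 2840.5 CPM around 239 in the low tumors (log2 fold change 2.76 ± 0.48, adjusted p = 9.66e-07). MMP16, a membrane-type protease, changed by 1.67 ± 0.21, and MMP19 by -1.45 ± 0.28. Cartilage genes gave 5 of 19 higher and 3 lower in limma-voom but 1 higher and 9 lower in edgeR and 2 higher and 4 lower without the lowest-scoring library, so no direction can be given for the list. COL11A2, the member raised the most, did not pass in edgeR (log2 fold change 2.30 ± 0.45, adjusted p = 1.73e-05; edgeR 0.99, adjusted p = 0.102), whereas COMP was lower (log2 fold change -1.80 ± 0.49, adjusted p = 0.00223). In the proliferation list 11 of 28 were higher and 0 lower, with a median of 0.38, and 8 were higher without the lowest-scoring library and 5 with the leukocyte score as a covariate. The replication licensing genes MCM2 and MCM7 and the mitotic factor FOXM1 changed by 0.66 ± 0.17, 0.46 ± 0.11 and 0.77 ± 0.19. Glycolysis and hypoxia genes were lower in 7 of 25 and higher in 1, with carbonic anhydrases CA9 and CA12 at -1.96 ± 0.45 and -2.34 ± 0.51 and the collagen prolyl hydroxylase P4HA1 at 0.60 ± 0.15. Endothelial genes were lower in 5 of 20, VWF at -1.29 ± 0.27, and 3 were lower without the lowest-scoring library and 8 in edgeR. None of 18 skeletal muscle genes and 1 of 6 fat genes passed in limma-voom, edgeR calling 3 muscle genes lower. The 1 tested erythroid gene did not pass. Of 24 genes altered in osteosarcoma genomes 6 were higher, RUNX2 and KIT among them, and 4 lower, or 1 in edgeR. Of 22 tested surface proteins considered as targets in osteosarcoma 4 were higher and 5 lower, or 8 and 6 in edgeR. Set against the 16.7% higher and 17.5% lower of all genes, the share of lower genes in the endothelial list and both shares in the genome alteration and surface protein lists were near the background, so nothing is read from them about these lists. ERBB2, EPHA2 and CD276 changed by 0.65 ± 0.13, 0.98 ± 0.16 and 0.57 ± 0.12, and GPNMB ran from 7.19 to 1204 CPM around a median of 68.9 in the high and from 26.3 to 3687 CPM around 237 in the low tumors (log2 fold change -1.85 ± 0.29, adjusted p = 5.64e-08).

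**Figure D5:**
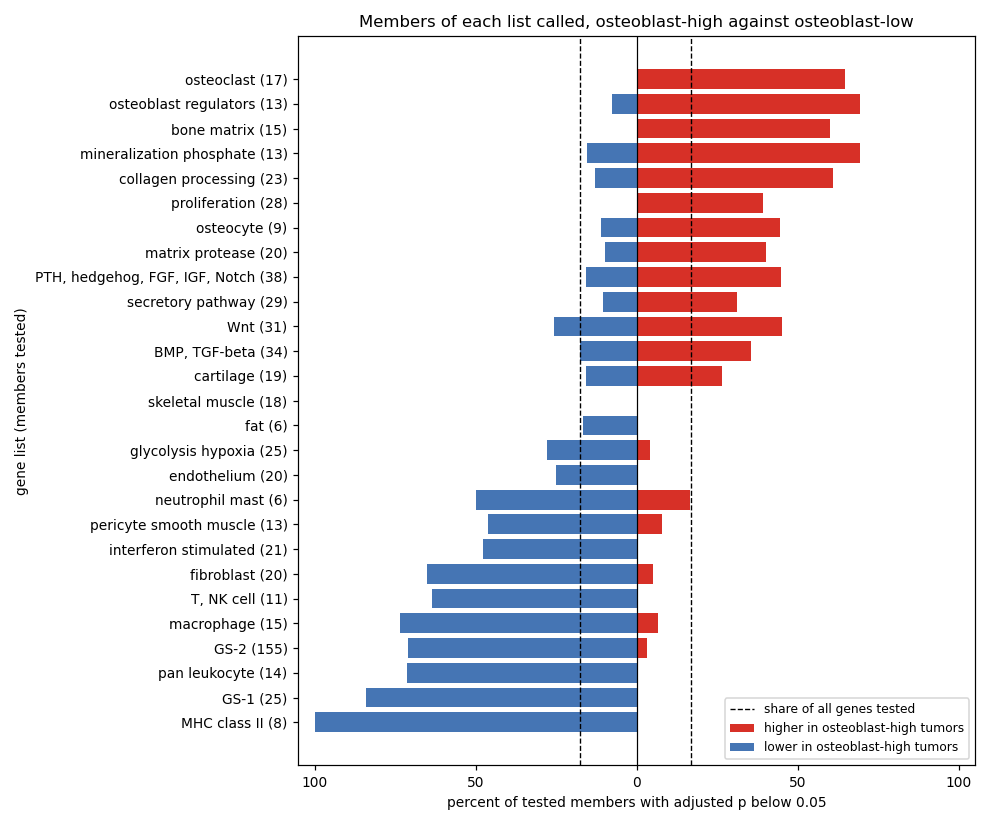
Percent of each list's tested members that were higher (red, right) or lower (blue, left) in osteoblast-high tumors at an adjusted p below 0.05 in limma-voom, with the number tested in brackets. Dashed lines mark the shares over all 13419 genes, 16.7% higher and 17.5% lower. Bone, mineral and osteoclast lists lie to the right, and MHC class II, GS-1 and macrophage lists to the left.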

How the data were processed

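RNA from 186 canine tumor biopsies was sequenced from stranded poly(A)-selected libraries. The authors trimmed reads with Cutadapt, aligned them to CanFam4 (GSD_1.0) with STAR 2.7.0f and deposited RSEM 1.3.1 expected counts, of which 3.07% were not whole numbers. The deposited table holds 37952 genes and 198 columns, 12 of which match no sample here and were not used. Gene positions are those of the RefSeq annotation of GSD_1.0.

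The score used unrounded counts. For testing, expected counts were rounded, genes were kept by edgeR's filterByExpr (a minimum count of 10, a minimum proportion of 0.5 and a large group of 5), and TMM-normalized values were fitted in limma-voom (limma 3.58.1, edgeR 4.0.16, R 4.3.3) over all 186 tumors with trial as a covariate. DESeq2 1.42.0 and edgeR served as alternatives. The fit was checked on simulated counts. Differentially expressed genes had a fold change above 3 and an adjusted p below 0.05. Every tumor is from a different dog, so p-values measure the spread between dogs. The permutation test drew 100000 resamples.

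Members and lists were chosen with earlier results of these data known. Named genes were the 10 largest and 10 smallest changes above 3-fold with a symbol and 1 sign within each trial and each library name group. Also named were all members of 4 bone lists, called members of the signaling lists, and up to 3 called members per direction of the other lists. Results of a few genes that meet this rule are not reported here.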

Additional observations from a re-analysis of the deposited data

How the results depend on the processing

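Of 13419 genes, 2243 were higher and 2353 lower, with 229 and 217 beyond 3-fold. Testing against a fold change of 3 left 36 and 1 of these, edgeR gave 138 and 393, and DESeq2 137 and 380. Without a filter on low counts, 2884 of 30011 genes were higher and 8273 lower, 309 and 372 of them beyond 3-fold. With the leukocyte score as a covariate 117 were lower beyond 3-fold. Within COTC021 1022 genes were higher and 1248 lower (127 beyond 3-fold), and within COTC022 1093 and 1179. The 50 deeper libraries alone, with 14 high and 10 low tumors, gave 509 and 748 (152 and 336 beyond 3-fold), and the other 136 gave 1512 lower. Cutting the score into 3 equal groups and comparing the outer ones gave 142 higher beyond 3-fold, and a score without SP7 gave 50 lower. Subsets by trial or library name hold fewer tumors, and otherwise the cause was not tested. Both the alternative without the lowest-scoring library and the one without the library led by few genes were chosen after seeing the data. Directions turned for DCN (0.11), LUM (0.22) and SLC20A1 (0.22) in the deeper libraries, and for TNFRSF11B in edgeR (-0.085), DESeq2 (-0.093) and with the leukocyte covariate (-0.15), none of them past the threshold there. Among 139 genes named, 62 of 136 called kept call and direction under all 20 alternatives. Genes near 0 in low tumors are limited by depth. No paired analysis was possible because each tumor is from a different dog and replicate numbers are only names.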
